A study of Drosophila melanogaster with 6 samples.

Results

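The genes described here encode the subunits of the proteasome in larvae of the fruit fly Drosophila melanogaster. They were chosen by name alone, as every gene of the table whose symbol begins with Prosalpha, Prosbeta, Rpn or Rpt followed by a digit, which gave 47 of 14240 genes. Of these, 24 belonged to the core particle and 23 to the regulatory particle. By the lists used here, 32 were canonical subunits (14 core and 18 regulatory) and 15 were paralogs of a canonical subunit, 10 core and 5 regulatory, whose symbols carry an added T or R. All 47 were found in the annotation of genome build BDGP6, on chromosomes 2L (8 genes), 2R (12), 3L (7), 3R (14) and X (6).

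The study used EC-tagging, in which a fused cytosine deaminase and uracil phosphoribosyltransferase (CD:UPRT) lets a cell turn fed 5-ethynylcytosine (5EC) into a nucleotide that enters new RNA, and asked which RNAs are made in multidendritic (md) sensory neurons. EC-RNA came from early L3 larvae carrying both 109(2)80-Gal4 and UAS-CD:UPRT, fed 5EC for 12 h, and the reference (ref-RNA, or EUd) came from UAS-CD:UPRT larvae of that stage without a Gal4 driver, fed 5-ethynyluridine (5EUd) for 12 h, which labels RNA in all carcass cells. Mock-RNA came from early L3 UAS-CD:UPRT larvae fed neither compound and was carried through the same purification. There were 2 biological replicates of each sample type, 6 libraries in all. All larvae carried the UAS-CD:UPRT transgene and were grown at 25 °C. The driver is also active in neurons of the central nervous system, which were dissected away, and each library held RNA of pooled carcasses. Ethynyl-labelled RNA was biotinylated, captured on streptavidin beads and sequenced, so that all values refer to RNA on the beads and not to total RNA.

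The proteasome degrades proteins tagged with ubiquitin. Its core particle is a barrel of alpha rings, which gate the entrance, around beta rings, which hold the proteolytic sites, and its regulatory particle consists of a base of ATPases that unfold substrates and a lid that removes ubiquitin. It is needed in nearly all cells, and in the fly the ubiquitin-proteasome system is known to act in the pruning of md neuron dendrites at metamorphosis.

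Values are in TPM, the share of all transcripts in a library corrected for transcript length, summed over the transcripts of a gene with blank cells taken as 0. The table gives no counts, so the number of reads behind each value is not known. The study gives mapped reads as a range for each sample type, lower for EC-RNA than for ref-RNA and lowest for mock-RNA, so depth and sample type cannot be told apart. Genes above 0 numbered 9942 and 10369 in ref-RNA, 4761 and 5016 in EC-RNA, and 2178 and 1812 in mock-RNA, and the mitochondrial share of TPM was 24.2% to 25.0%, 31.1% to 39.1% and 1.42% to 3.87%. The 7 md neuron markers summed to 109 and 94.8 TPM in ref-RNA, to 1.23 and 105 TPM in EC-RNA and to 5.17 and 18.1 TPM in mock-RNA. In EC-RNA 5 of the 7 were blank in replicate 1 and 3 of the 7 in replicate 2, with ppk26, pdm3 and Gr28b at 0 in both. Most of the sum in EC-RNA replicate 2 was Piezo (55.9 TPM) and ct (45.1 TPM), and kn had 4.23 TPM. For ppk, EC-RNA held 0 and 0.0910 TPM, against 6.79 and 4.80 TPM in ref-RNA. The 8 muscle markers, all above 0 in every library, summed to 39418 to 40157 TPM in EC-RNA, against 73892 to 81818 TPM in ref-RNA and 16165 to 35538 TPM in mock-RNA. The 8 epidermis and cuticle markers summed to 25848 and 38936 TPM in EC-RNA, 17100 and 14095 TPM in ref-RNA and 7862 and 146510 TPM in mock-RNA. Lcp4 alone had 146063 TPM in mock-RNA replicate 2, and Tb and sha were at 0 in every library. The 8 neuron markers summed to 211 and 648 TPM in EC-RNA, 278 and 249 TPM in ref-RNA and 206 and 142 TPM in mock-RNA. These members did not move together. In EC-RNA most of the sum was elav (32.3 and 331 TPM) and Syx1A (176 and 289 TPM). Syt1 had 0.168 and 0.444 TPM there, against 9.05 and 12.8 TPM in ref-RNA and 152 and 53.8 TPM in mock-RNA. The part of these differences in the results below was not tested. In such bulk samples fewer cells of a type and less RNA per cell cannot be told apart.

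In ref-RNA the canonical subunits were present at similar levels. Of the 32, 31 were above 0 in both replicates, and their means ran from 30.2 TPM for Rpt1 to 134 TPM for Prosalpha6, a 4.43-fold range with a coefficient of variation of 41.3%. None of these genes differed 10-fold between the ref-RNA replicates. On the scale of TPM + 1, 2 of the 31 differed by more than 2-fold, Prosalpha4 with 62.2 and 25.9 TPM and Prosalpha5 with 88.7 and 40.2 TPM. The 31 genes together made up 0.209% and 0.190% of all TPM. The median core gene stood at 73.6 and 63.1 TPM and the median regulatory gene at 58.0 and 52.7 TPM, and the mean core level was 1.33 and 1.22 times the mean regulatory level.

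**Figure D1:**
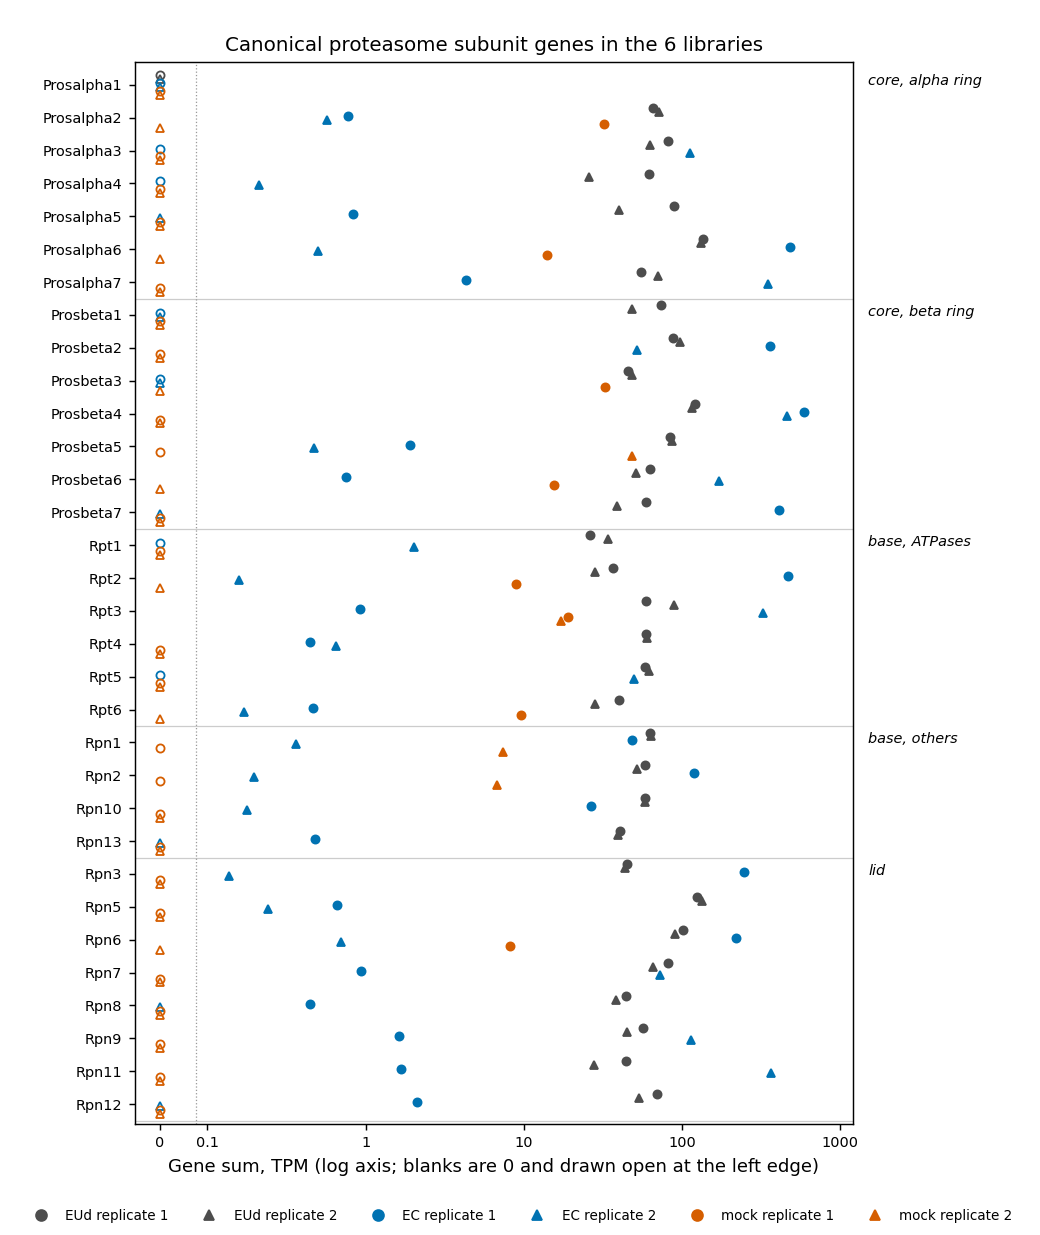
TPM of the 32 canonical subunit genes on a log axis, 1 row per gene grouped by place in the complex, with grey symbols for ref-RNA (EUd), blue for EC-RNA, orange for mock-RNA, circles for replicate 1, triangles for replicate 2, and open symbols at the left edge for blanks. The grey symbols stay between 25.9 and 135 TPM for 31 genes, whereas every gene other than Prosbeta2 and Prosbeta4 has 1 or both blue symbols below 5 TPM or at 0.

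The alpha ring carries the gate of the core. Prosalpha6 (FBgn0250843, chromosome 2L, 10221351 to 10222546) had the highest reference mean of all subunits, with 135 and 132 TPM in ref-RNA, 484 and 0.497 TPM in EC-RNA and 14.0 and 0 TPM in mock-RNA. Prosalpha7 had 54.8 and 70.8 TPM in ref-RNA and 4.33 and 347 TPM in EC-RNA, and was blank in mock-RNA. Prosalpha3 had 81.7 and 63.1 TPM in ref-RNA and 0 and 112 TPM in EC-RNA, and was blank in mock-RNA. For these 3 genes 1 EC-RNA replicate lay above both reference values and the other below both, and the replicate on top was not the same one. Prosalpha2 had 65.9 and 71.9 TPM in ref-RNA, 0.777 and 0.571 TPM in EC-RNA and 32.2 and 0 TPM in mock-RNA. Prosalpha4 had 62.2 and 25.9 TPM in ref-RNA, 0 and 0.211 TPM in EC-RNA and was blank in mock-RNA. Prosalpha5 had 88.7 and 40.2 TPM in ref-RNA and 0.831 and 0 TPM in EC-RNA, and was blank in mock-RNA. Both EC-RNA values of these 3 genes lay under both of their reference values.

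Prosalpha1 (FBgn0263121, chromosome 2R, 7827303 to 7828678) was blank in all 6 libraries. A second gene with the same coding length of 732 bp lies 1734 bp away (7830413 to 7831771), named CG30382 in the table and Prosalpha1R in the annotation used here. CG30382 had 42.0 and 39.9 TPM in ref-RNA, 0 and 0.300 TPM in EC-RNA and 0 in both mock-RNA libraries. Reads that match both copies cannot be told apart, so the value of either gene is uncertain. Its ref-RNA level was below that of every other alpha subunit in replicate 1 and above that of Prosalpha4 in replicate 2.

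The beta ring holds the 3 proteolytic subunits. Prosbeta1 (FBgn0010590, caspase-like activity, chromosome 2R, 16013805 to 16014787) had 73.6 and 48.2 TPM in ref-RNA and was blank in all 4 other libraries. Prosbeta2 (FBgn0023174, trypsin-like activity, chromosome 3L, 14999951 to 15001319) had 87.7 and 96.9 TPM in ref-RNA and 361 and 52.3 TPM in EC-RNA, and was blank in mock-RNA. Prosbeta5 (FBgn0029134, chymotrypsin-like activity, chromosome 2R, 10819978 to 10821178) had 83.8 and 86.5 TPM in ref-RNA, 1.92 and 0.470 TPM in EC-RNA and 0 and 48.1 TPM in mock-RNA. The 3 catalytic genes thus had reference means within 2-fold of each other. In EC-RNA Prosbeta1 and Prosbeta5 were low or blank in both replicates, and Prosbeta2 was not.

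Among the structural beta subunits, Prosbeta4 (FBgn0032596, chromosome 2L, 16731180 to 16732133) had 121 and 116 TPM in ref-RNA and 593 and 462 TPM in EC-RNA, and was blank in mock-RNA. It was the only one of the 31 genes with both EC-RNA values above both reference values. Prosbeta3 had 45.4 and 48.5 TPM in ref-RNA, was blank in both EC-RNA libraries and had 32.5 and 0 TPM in mock-RNA. Prosbeta6 had 63.1 and 51.1 TPM in ref-RNA, 0.752 and 170 TPM in EC-RNA and 15.6 and 0 TPM in mock-RNA. Prosbeta7 had 59.2 and 39.0 TPM in ref-RNA and 412 and 0 TPM in EC-RNA, and was blank in mock-RNA. Prosbeta6 and Prosbeta7 were each above the reference in 1 EC-RNA replicate only, again not the same one.

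The base of the regulatory particle contains 6 ATPases, Rpt1 to Rpt6, which thread substrates into the core. Rpt2 (FBgn0015282, chromosome 3R, 23929873 to 23931558) had 36.8 and 28.2 TPM in ref-RNA, 466 and 0.158 TPM in EC-RNA and 8.93 and 0 TPM in mock-RNA. Rpt3 had 59.4 and 89.5 TPM in ref-RNA, 0.916 and 323 TPM in EC-RNA and 19.0 and 17.2 TPM in mock-RNA. Rpt5 had 57.9 and 61.9 TPM in ref-RNA and 0 and 49.5 TPM in EC-RNA, and was blank in mock-RNA. Rpt3 was the single subunit gene above 0 in both mock-RNA libraries. Rpt1 had 26.4 and 34.0 TPM in ref-RNA and 0 and 2.03 TPM in EC-RNA, and was blank in mock-RNA. Rpt4 had 59.3 and 60.4 TPM in ref-RNA and 0.443 and 0.651 TPM in EC-RNA, and was blank in mock-RNA. Rpt6 had 39.8 and 28.2 TPM in ref-RNA, 0.465 and 0.171 TPM in EC-RNA and 9.64 and 0 TPM in mock-RNA. These 3 ATPase genes were below both reference values in both EC-RNA replicates.

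Of the other base subunits, Rpn1 and Rpn2 are scaffolds, Rpn1 also binding shuttle proteins, and Rpn10 and Rpn13 are ubiquitin receptors. Rpn1 had 63.2 and 63.5 TPM in ref-RNA, 48.1 and 0.362 TPM in EC-RNA and 0 and 7.42 TPM in mock-RNA. Rpn2 had 58.4 and 51.9 TPM in ref-RNA, 120 and 0.198 TPM in EC-RNA and 0 and 6.74 TPM in mock-RNA. Rpn10 had 58.0 and 57.9 TPM in ref-RNA and 26.6 and 0.178 TPM in EC-RNA, and was blank in mock-RNA. In EC-RNA all 3 were high in replicate 1 and under 1 TPM in replicate 2. Rpn13 had 40.4 and 39.5 TPM in ref-RNA, 0.476 and 0 TPM in EC-RNA and was blank in mock-RNA, so that the summed level of the 4 genes in EC-RNA was 195 TPM in replicate 1 and 0.738 TPM in replicate 2.

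The lid contains Rpn11, the deubiquitinase that strips ubiquitin from substrates, its inactive partner Rpn8, and 6 further scaffold subunits. Rpn11 (FBgn0028694, chromosome 2L, 5058404 to 5059790) had the lowest reference mean of the lid, with 44.5 and 27.6 TPM in ref-RNA and 1.67 and 363 TPM in EC-RNA. Rpn8 had 44.0 and 38.0 TPM in ref-RNA and 0.446 and 0 TPM in EC-RNA. Neither of these partners was above 0 in mock-RNA. Rpn5 (FBgn0028690, chromosome 3R, 5789493 to 5791569) had the highest reference mean of the lid, with 124 and 133 TPM in ref-RNA, but 0.660 and 0.243 TPM in EC-RNA, and was blank in mock-RNA. Rpn12 had 69.3 and 53.5 TPM in ref-RNA and 2.11 and 0 TPM in EC-RNA, and was blank in mock-RNA. Rpn5, the most abundant lid gene in ref-RNA, was among the lowest in EC-RNA.

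The remaining lid genes were each high in 1 EC-RNA replicate. Rpn3 had 45.1 and 43.4 TPM in ref-RNA and 248 and 0.138 TPM in EC-RNA. Rpn6 had 102 and 90.8 TPM in ref-RNA, 219 and 0.704 TPM in EC-RNA and 8.22 and 0 TPM in mock-RNA. These 2 were high in replicate 1. Rpn7 had 81.1 and 65.9 TPM in ref-RNA and 0.939 and 72.6 TPM in EC-RNA. Rpn9 had 56.7 and 45.0 TPM in ref-RNA and 1.63 and 113 TPM in EC-RNA. Rpn7 and Rpn9 were high in replicate 2, and Rpn3, Rpn7 and Rpn9 were blank in mock-RNA.

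The 15 paralogs, several of which are known from the fly testis, were nearly absent. All 15 were blank in EC-RNA and in mock-RNA, and 10 of the 15 were blank in all 6 libraries. Only 2 reached 1 TPM anywhere. Rpt4R had 2.97 and 0.530 TPM in ref-RNA, and Prosbeta5R2 had 0 and 1.58 TPM. The other 3 with a value, Prosalpha4T2 (0.473 TPM), Rpt3R (0.657 TPM) and Rpt6R (0.694 TPM), were seen in ref-RNA replicate 2 alone. With all libraries of a comparison in the fit, no paralog passed the filter of a mean of 1 TPM. With 1 EC-RNA or mock-RNA library left out, Rpt4R passed it against ref-RNA, so that 19 regulatory genes were tested.

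EC-RNA split the 31 genes into a high and a low set, and the split differed between replicates. With a boundary at 12.5% of a gene's reference mean, chosen after these values were known, 10 genes lay at or above it in replicate 1 (26.6 to 593 TPM, 46.0% to 1432% of the reference mean). A further 15 had 0.513% to 6.89% of the reference mean, and 6 had no signal. Replicate 2 also placed 10 genes on the high side (49.5 to 462 TPM, 56.6% to 1006%), with 14 at 0.189% to 6.74% and 7 without signal. Nearest the boundary in replicate 1 were Rpn10 at 46.0% and Prosalpha7 at 6.89%, and in replicate 2 Prosbeta2 at 56.6% and Rpt1 at 6.74%, so no gene lay in between.

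The sets of high genes in the EC-RNA replicates had 2 members in common, Prosbeta2 and Prosbeta4, both of the beta ring. A further 8 genes were high in replicate 1 only (Prosalpha6, Prosbeta7, Rpt2, Rpn1, Rpn2, Rpn10, Rpn3 and Rpn6) and 8 in replicate 2 only (Prosalpha3, Prosalpha7, Prosbeta6, Rpt3, Rpt5, Rpn7, Rpn9 and Rpn11), while 13 were high in neither. Among all 1962 genes with a reference mean in the same range, 27.8% were at or above 12.5% of it in replicate 1, 43.4% in replicate 2, 16.5% in both and 54.7% in either. For the 31 subunit genes these shares were 32.3%, 32.3%, 6.45% and 58.1%. Their EC-RNA values differed by 10-fold or more on the scale of TPM + 1 in 16 genes (51.6%), against 35.4% of the 1962. In the core particle 4 of 13 genes were high in replicate 1 and 5 in replicate 2, and in the regulatory particle 6 and 5 of 18.

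**Figure D2:**
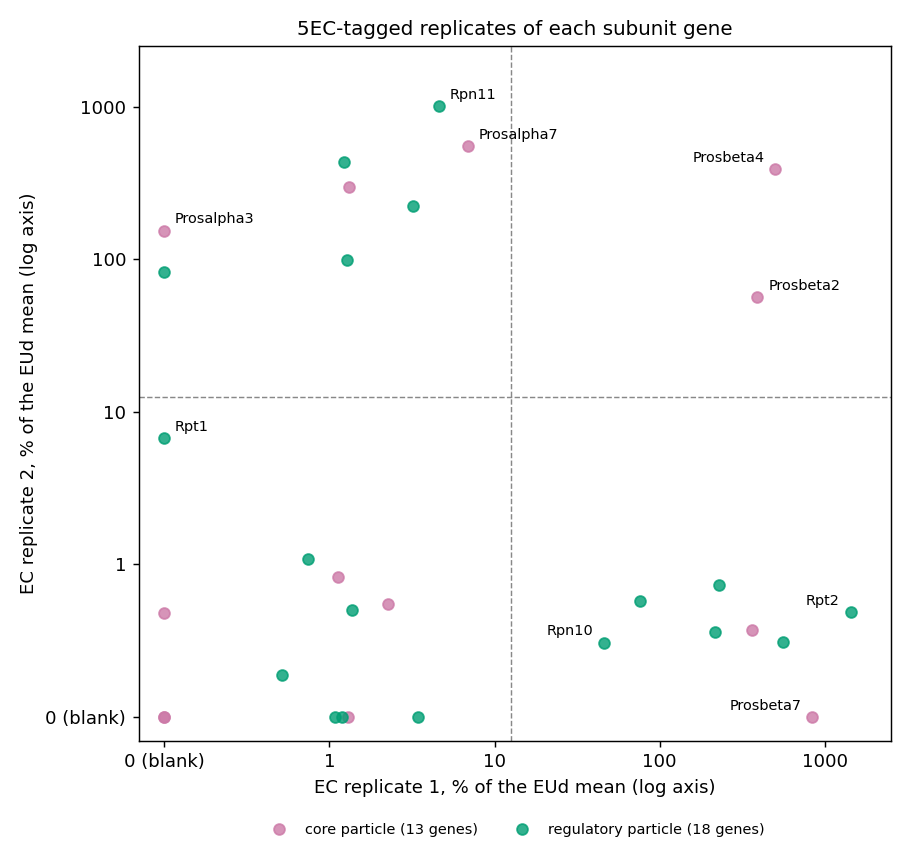
EC-RNA level of each of 31 canonical subunit genes as a percentage of its mean in ref-RNA, replicate 1 against replicate 2, both on log axes with blanks drawn at the lowest tick and dashed lines at 12.5%. Only Prosbeta2 and Prosbeta4 fall in the upper right field, 8 genes fall in each of the upper left and lower right fields, and 13 fall in the lower left field, where Prosbeta1 and Prosbeta3 share the point at 0.

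The 18 genes high in at least 1 EC-RNA replicate and the 13 high in neither had similar reference levels, with medians of 61.4 and 59.9 TPM. Their median coding lengths were 1157 and 846 bp, and the ranges overlapped (603 to 3087 bp and 615 to 1506 bp). Both sets held core and regulatory genes, with 7 of 13 core genes and 11 of 18 regulatory genes in the first. Because few genes carried nearly all of the signal, the 10 most abundant subunit genes made up 99.4% and 99.7% of the summed TPM in EC-RNA, against 46.8% and 50.1% in ref-RNA. The sum over the 31 genes was 2996 and 2071 TPM in EC-RNA and 2088 and 1903 TPM in ref-RNA, while the median gene had 0.939 and 0.470 TPM in EC-RNA against 59.4 and 53.5 TPM in ref-RNA. A sum over the complex and a median over its genes thus gave different pictures of the same libraries.

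EC-RNA was compared with ref-RNA by limma on log2(TPM + 1), which understates the difference of genes near 0, and calls required an adjusted p below 0.05 together with a 2-fold or larger difference. Of 31 subunit genes tested, 13 (41.9%) were called lower in EC-RNA and none was called higher, also at an unadjusted p below 0.05. Of the 9064 genes in the fit, 56.0% were called lower and 0.199% higher. Whether the subunit share lay under or over that of all genes depended on the setting, since it was 41.9% against 30.3% with a pseudocount of 10 and 41.9% against 36.5% with a filter at 10 TPM. The 13 comprised 6 core genes (Prosalpha2, Prosalpha4, Prosalpha5, Prosbeta1, Prosbeta3 and Prosbeta5) and 7 regulatory genes (Rpt1, Rpt4, Rpt6, Rpn13, Rpn5, Rpn8 and Rpn12). They were the same 13 that lay below the boundary in both EC-RNA replicates, a match that comes from the same values. Their differences ran from -6.49 for Rpn5 (SE 0.57, adjusted p = 0.00364) to -4.15 for Rpt1 (SE 0.70, adjusted p = 0.0150). Among the catalytic genes, Prosbeta1 differed by -5.92 (SE 0.40, adjusted p = 0.00286 by limma) and Prosbeta5 by -5.38 (SE 0.66, adjusted p = 0.00702). In contrast, Prosbeta2 differed by 0.58 (SE 1.45, adjusted p = 0.784). Prosbeta1 and Prosbeta3 were blank in both EC-RNA libraries, so their differences only restate their reference levels. Their spread came from ref-RNA alone.

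For 16 of the 31 genes (51.6%) both EC-RNA values lay below both ref-RNA values, against 69.1% of all genes tested. These were the 13 called genes with Rpn1, Rpn10 and Rpt5. Both values lay above for Prosbeta4 alone (3.16% of all genes), and its difference of 2.13 (SE 0.75) did not pass the test (adjusted p = 0.0955). The 18 genes not called had standard errors of 0.75 to 3.47, against 0.29 to 0.78 for the 13 called. Rpn11 differed by -0.21 with a standard error of 2.89 (adjusted p = 0.961), and Rpt2 by -0.52 with a standard error of 3.44 (adjusted p = 0.919).

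The median difference was -2.78 for 13 core genes and -3.04 for 18 regulatory genes, and -2.59 over all genes tested. Relative to all genes the medians were -0.19 and -0.45. These signs depended on the setting: with median-of-ratios scaling, which moved the median of all genes to -1.22, they were 0.42 and 0.77, with quantile normalization, which moved it to 0.08, -1.96 and -0.98, and with a pseudocount of 0.1, 0.53 and 0.88. Without EUd replicate 1 they were 0.24 and -0.23, without EC replicate 1 -2.85 and -2.58, and without EC replicate 2 -2.10 and -1.37. Both fits without an EC replicate tested 32 genes, the 31 canonical genes and the paralog Rpt4R. They hold no spread of EC-RNA, so their calls are not read. The number called lower was 3 (9.68%) with median-of-ratios scaling, against 28.4% of all genes. With quantile normalization it was 0, as for all genes.

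**Figure D3:**
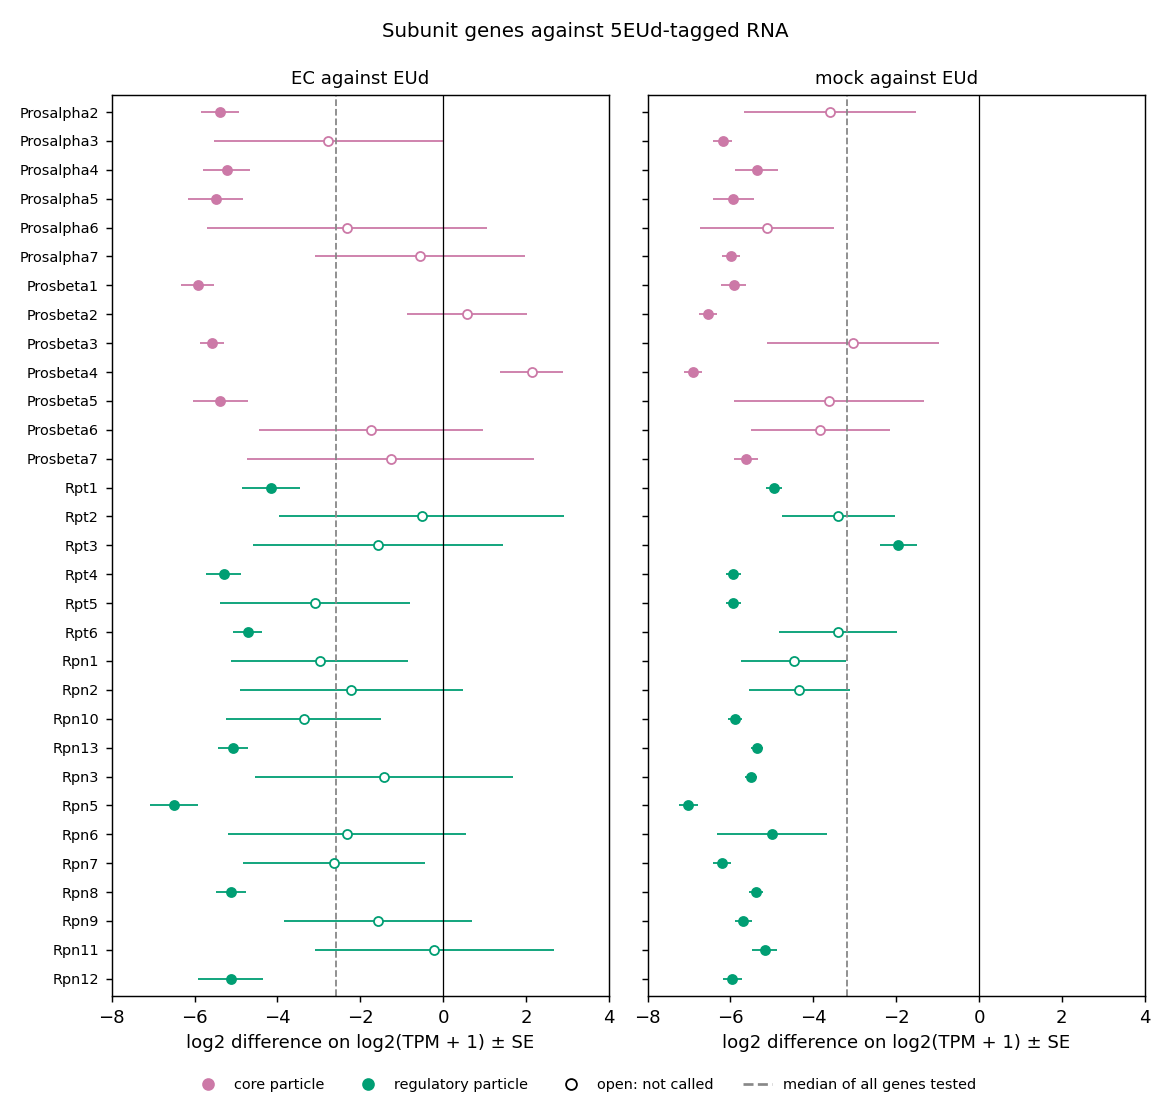
Log2 difference on the log2(TPM + 1) scale, with its limma standard error as a bar, for 31 canonical subunit genes in EC-RNA (left) and mock-RNA (right) against ref-RNA. Filled points passed the test, 13 on the left and 22 on the right, open points did not, and the dashed line is the median of all genes tested, at -2.59 and -3.19.

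The comparison with mock-RNA asks whether a transcript held a larger share of its library than in an unlabelled sample. TPM is a share, so amounts captured are not compared. Of 31 genes, 20 were blank in both mock-RNA libraries, and the summed level was 140 and 79.4 TPM. The 22 subunit genes that averaged 1 TPM or more across the EC-RNA and mock-RNA libraries were tested, and limma called none higher or lower. At an unadjusted p below 0.05, 2 were higher and none lower, beside 11.7% higher and 2.20% lower among all genes tested. Of the 4096 genes tested, 0.342% were called higher (14 genes) and 0.0244% lower (1 gene). With quantile normalization that split was 21 higher and 17 lower. The 2 genes nearest to a call were those high in both EC-RNA replicates. Prosbeta4 differed by 9.03 on the log2(TPM + 1) scale (SE 1.53, adjusted p = 0.0958), and Prosbeta2 by 7.12 (SE 1.99, adjusted p = 0.164), with both genes listed at 0 in mock-RNA. In a single fit of all 3 sample types limma called 2 subunit genes higher (9.09%, against 6.98% of all genes). With a single EC-RNA library the fit holds no spread of EC-RNA, and genes blank in mock-RNA pass the filter only through that library. Its calls are therefore not read. The median difference of the subunit genes tested was 4.09 without EC replicate 1, against 2.46 for all genes. Without EC replicate 2 it was 4.79, against -0.67. The same filter shapes these medians, so nothing is read from them.

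In 8 of the 22 (36.4%) the lower EC-RNA value exceeded the higher mock-RNA value, as in 33.9% of all genes tested. These were Prosalpha7, Prosbeta2 and Prosbeta4 of the core and Rpn10, Rpn3, Rpn7, Rpn9 and Rpn11 of the regulatory particle. All 8 were blank in both mock-RNA libraries and passed the filter only through EC-RNA, as did 11 of the 22 in all, so a blank decided this arrangement and nothing is read from the share. The lower EC-RNA values of Rpn3 and Rpn10 were 0.138 and 0.178 TPM, while the smallest subunit value above 0 in mock-RNA was 6.74 TPM. The median difference was 3.10 for 10 core genes, 2.75 for 12 regulatory genes and 1.91 for all genes. Nothing is read from these medians either, since 11 of the 22 genes entered them only through EC-RNA. In the other 14 genes the values of the sample types overlapped, among them Prosalpha2, Prosbeta3, Prosbeta5 and Rpt6, whose differences were negative (-1.79, -2.53, -1.76 and -1.32), each with a single mock-RNA library above both EC-RNA values.

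Mock-RNA was compared with ref-RNA to see what the beads held without a label. Of 31 subunit genes, 22 (71.0%) were called lower in mock-RNA and none higher, also at an unadjusted p below 0.05, against 67.1% lower and 0.731% higher among 9025 genes. With quantile normalization the split over all genes was 129 higher and 511 lower, in place of 66 and 6054. Both mock-RNA values of every one of the 31 genes lay below both reference values, against 86.3% of all genes, a share not matched for reference level. The 22 were 8 core and 14 regulatory genes, and 20 of them were the genes blank in both mock-RNA libraries, for which the spread came from the reference alone. The other 2 were Rpn6, with a difference of -5.00 (SE 1.33, adjusted p = 0.0481), and Rpt3, with -1.95 (SE 0.45, adjusted p = 0.0337). All 9 genes not called had a value in 1 mock-RNA library. The median difference was -5.62 for core genes, -5.37 for regulatory genes and -3.19 for all genes. For a gene blank in mock-RNA this difference only restates its reference level. With a filter at 10 TPM the subunit medians stayed the same and that of all genes was -4.45. The number called was 14 (45.2%) with quantile normalization, against 5.66% of all genes. In the fit of all 3 sample types it was 13 (41.9%), against 57.8%. This comparison shares its ref-RNA libraries with that of EC-RNA.

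In mock-RNA and at the low end of EC-RNA replicate 1, the values of the subunit genes fell into narrow groups. The product of TPM and annotated transcript length in kb, summed over a gene's transcripts, is roughly proportional, within a library, to the reads assigned to the gene. In mock-RNA replicate 1 the products of 8 genes fell in 2 groups, 5 genes at 13.3 to 14.7 (Prosalpha6, Prosbeta6, Rpn6, Rpt2 and Rpt6) and 3 at 27.0 to 29.7 (Prosalpha2, Prosbeta3 and Rpt3). In mock-RNA replicate 2, 3 genes lay at 22.4 to 24.5 (Rpn1, Rpn2 and Rpt3), and Prosbeta5 lay at 51.7. All mock-RNA levels of the subunits were thus within 2.31 times the smallest product in their library.

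In EC-RNA replicate 1, 7 of the 15 low genes had products of 0.648 to 0.726, 3 had 1.25 to 1.31 and 3 had 2.01 to 2.10, followed by Rpn9 at 2.56 and Prosalpha7 at 4.22, or 6.51 times the smallest. In replicate 2, 5 of the 14 low genes had products of 0.233 to 0.248, and the other 9 ran from 0.460 to 3.08. Of these, 3 had 0.460 to 0.511, with Prosalpha2 close to them at 0.525, and the rest were more spread. The largest product, of Rpt1, was 13.2 times the smallest. The 10 high genes lay at 55.7 to 1078 times the smallest product in replicate 1 and at 232 to 1971 times in replicate 2. The number of reads behind these products was not derived, and transcript lengths came from an annotation that may differ from the one used for the deposited values.

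**Figure D4:**
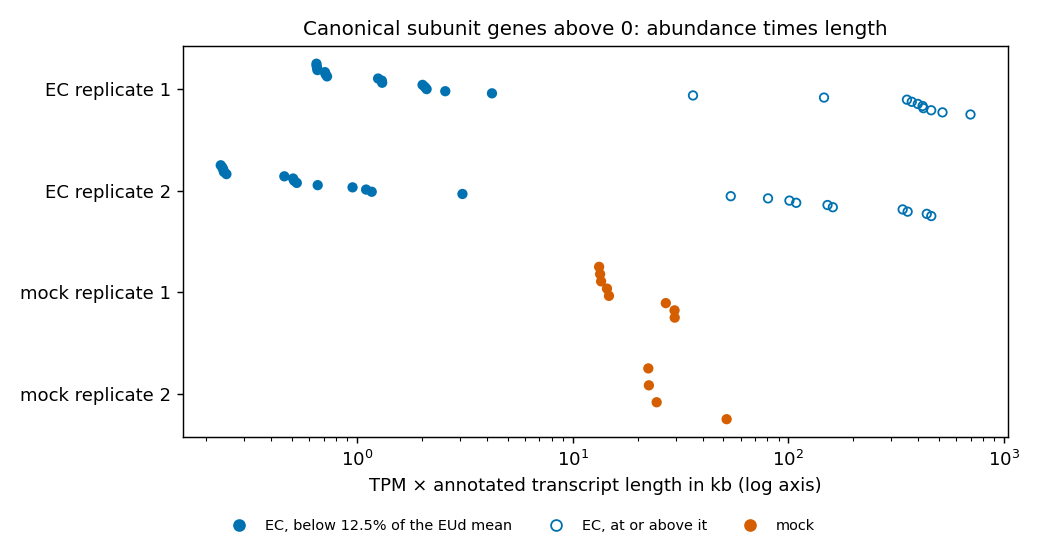
Product of TPM and annotated transcript length in kb, on a log axis, for each canonical subunit gene above 0 in the EC-RNA and mock-RNA libraries, 1 band per library, with open circles for EC-RNA genes at or above 12.5% of the reference mean. The mock-RNA values and the low values of EC-RNA replicate 1 form narrow groups, and the open circles lie to the right of every filled circle in the same library.

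Of the 47 genes, 27 had 1 transcript in the table and 20 had several, 74 transcripts in all. Gene sums hid differences between transcripts. For Prosalpha6, transcript FBtr0079948 had 133 and 0 TPM in ref-RNA and transcript FBtr0343606 had 1.83 and 132 TPM, so that the replicates assigned nearly all of a stable sum to different transcripts. In EC-RNA replicate 1 all 484 TPM went to FBtr0343606. Prosbeta4 had 62.2 and 59.6 TPM of FBtr0080936 (774 bp) and 58.6 and 56.8 TPM of FBtr0335142 (815 bp) in ref-RNA, but only FBtr0080936 was above 0 in EC-RNA. For Rpn9, FBtr0084470 had no signal in ref-RNA and carried all 113 TPM of EC-RNA replicate 2. For Rpn6, FBtr0087474 was at 0 in ref-RNA and had 197 TPM in EC-RNA replicate 1. Both transcripts of Rpn2 with a signal had identical values in every library, as did both of Rpn8 above 0.1 TPM, and copies of this kind cannot be told apart. The gene sum is the safer quantity for these subunits.

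Genes that work with the proteasome gave a similar mixture. In a list of activators, assembly factors and regulators, 13 of 18 names were matched and all 13 tested, and relative to ref-RNA limma called 6 of them lower in EC-RNA and none higher (also none higher at an unadjusted p below 0.05), beside 56.0% of all genes called lower, with a median difference of -2.97 beside -2.59. Sem1, the small lid protein that the name rule does not reach, had 21.8 and 23.5 TPM in ref-RNA and was blank in all 4 other libraries. Its difference of -4.56 (SE 0.20, adjusted p = 0.00286 by limma) thus only restates its reference level. PI31, a proteasome regulator, had 32.3 and 30.3 TPM in ref-RNA and 0.610 and 0 TPM in EC-RNA. Keap1 and maf-S, the inhibitor and the partner of the factor cnc, were also called lower, as were CG9588 and CG12321. Keap1, maf-S and CG12321 were likewise blank in both EC-RNA libraries. In contrast to these, cnc, which in the fly activates proteasome genes under stress, had 155 and 190 TPM in ref-RNA and 7.15 and 9.29 TPM in mock-RNA, and its 365 and 161 TPM in EC-RNA overlapped the reference. The maturation factor Pomp had 121 and 107 TPM in ref-RNA and 244 and 32.5 TPM in EC-RNA. The proteasome-bound deubiquitinase Usp14 had 79.9 and 76.1 TPM in ref-RNA and 580 and 50.0 TPM in EC-RNA. Only rngo, a ubiquitin shuttle protein, had both EC-RNA values (126 and 385 TPM) above both reference values (80.2 and 81.5 TPM), and it did not pass the test (1.43, SE 1.13, adjusted p = 0.395 by limma).

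Of 13 genes for ubiquitin, its transfer, shuttling and extraction, all were tested, and limma called 2 (Npl4 and Ube3a) lower in EC-RNA relative to ref-RNA and none higher, also at an unadjusted p below 0.05, beside the same 56.0% of all genes called lower, with a median difference of -2.83. TER94, the fly p97 ATPase, had 151 and 162 TPM in ref-RNA, 229 and 271 TPM in EC-RNA and 4.13 and 15.0 TPM in mock-RNA, and did not pass the test (0.67, SE 0.83, adjusted p = 0.570 by limma). In the signalosome, a complex related to the lid, 8 of 9 names were matched and 7 genes tested, of which 3 (CSN1b, CSN6 and CSN7) were called lower and none higher, also at an unadjusted p below 0.05, with a median of -3.41, beside 56.0% and -2.59 for all genes. Against mock-RNA limma called no gene of the 3 lists in EC-RNA in either direction. At an unadjusted p below 0.05, 4 of 6 activators and regulators tested (cnc, Pomp, Usp14 and rngo) were higher. Of 11 ubiquitin genes tested, 3 (eff, TER94 and Ubi-p5E) were higher and 2 (RpL40 and RpS27A) lower. Of all genes, 11.7% were higher and 2.20% lower at that threshold. Pomp, Usp14 and rngo were blank in both mock-RNA libraries and passed the filter only through EC-RNA, so nothing is read from these shares. In mock-RNA against ref-RNA limma called 12 of 13 activators and regulators, 7 of 13 ubiquitin genes and 5 of 7 signalosome genes lower, beside 67.1% of all genes. The 2 genes called higher in mock-RNA encode ubiquitin fused to a ribosomal protein, RpS27A with 7511 and 8688 TPM against 147 and 191 TPM in ref-RNA and RpL40 with 1289 and 1741 TPM against 288 and 262 TPM.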

How the data were processed

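The authors captured and sequenced labelled RNA from 6 libraries, 2 for each of 3 sample types, trimmed reads with Trimmomatic and quantified them with kallisto against the BDGP6 transcriptome, and deposited TPM per transcript (30828 transcripts). Depth per library is not given in the table, and TPM keeps none. TPM was summed per gene with blanks as 0 (Python 3.11.15, pandas 2.3.3). Coordinates and lengths came from BDGP6.54 (Ensembl release 115). No sample column was left unmatched. The study's count-based test needs counts, so log2(TPM + 1) of genes averaging 1 TPM or more was fitted with limma 3.58.1 (R 4.3.3, trended spread) in each pair of sample types, with Benjamini-Hochberg adjustment over all genes tested. The script was first tested on simulated data. With 2 replicates, prepared independently, p-values measure the spread between these libraries only. Members, lists and the 12.5% boundary were chosen with earlier results of these data known. All members were accounted for, and values in every library were given for the canonical genes and for paralogs reaching 1 TPM. Other pseudocounts, filters, scalings, fits and leaving out each library were tried. Replicate numbers did not pair the samples.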

Additional observations from a re-analysis of the deposited data

How the results depend on the processing

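Of 168 alternative values of 12 counts and medians, 127 stayed within the limits set for them, among them counts that stayed at 0. No median changed sign, which a count cannot do. Relative to all genes, however, the core median of EC-RNA against ref-RNA went from -0.19 to 0.42 with median-of-ratios scaling. The rest are given here, with the cause not tested unless stated. Counts of calls with 1 library left out are given for EC-RNA against ref-RNA only. These counts are not read, since a group with 1 library holds no spread of its own. For EC-RNA against ref-RNA, the 13 subunit genes called lower became 0 with quantile normalization, 3 with median-of-ratios scaling and 9 to 22 when 1 library was left out, and the 0 called higher became 1 with median-of-ratios scaling and 0 to 8. The core median of -2.78 moved to -4.43 and -1.23 with pseudocounts of 0.1 and 10, -2.32 without a filter, -1.89 with quantile normalization, -0.80 with median-of-ratios scaling and -3.99 with Prosalpha1 summed with its copy (an alternative chosen after seeing the data), and ran from -5.47 to -2.59 with 1 library left out. The regulatory median of -3.04 moved to -4.08 and -1.55 with those pseudocounts, -0.90 with quantile normalization and -0.45 with median-of-ratios scaling, and ran from -5.20 to -3.01. For EC-RNA against mock-RNA, the 0 genes called higher became 2 in the fit of all 3 sample types and 1 with a replicate block. With 1 library left out, the medians ran from 2.41 to 5.39 (core) and 1.63 to 5.11 (regulatory). For mock-RNA against ref-RNA, the 22 called lower became 14 with quantile normalization, beside 5.66% of all genes. In the fit of all 3 sample types they became 13, beside 57.8%. Its core median of -5.62 moved to -8.91 and -2.80 with the pseudocounts, -2.03 with quantile normalization, -6.15 rescaled without the 10 most abundant genes and -4.43 with median-of-ratios scaling. Its regulatory median of -5.37 moved to -8.66, -2.46, -1.44, -5.90 and -4.19 under these settings and to -5.17 without a filter. Over all genes, the 5080 called lower in EC-RNA than in ref-RNA became 2749 with a pseudocount of 10, 1590 with a filter at 10 TPM, 2575 with median-of-ratios scaling and 0 with quantile normalization (810 at an unadjusted p below 0.05), and the 14 called higher than in mock-RNA became 286 in the fit of all 3 sample types, 157 with the replicate block and 0 with median-of-ratios scaling. A library left alone in its group was assumed to vary like the other group. The correlation of same-numbered samples' deviations was 0.00, 0.01 and 0.00 in the 3 comparisons, so the numbers do not pair the samples, and the replicate block called 13 and 23 subunit genes lower against ref-RNA in EC-RNA and mock-RNA. With 2 libraries per group and no counts per gene, a blank says only that a gene was not detected.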
